A study of Mus musculus with 6 samples.

Results

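Trem2, Tyrobp, Axl, Lpl, Cd9, Cd68, Spp1, Csf1, Igf1 and Cd52 are genes of the microglial response to amyloid plaques, and they were followed here in tissue of the locus coeruleus, the noradrenergic nucleus of the pons. They were chosen by name, from rows of the expression table matched to gene symbols, and make up 10 of its 56923 genes. All 10 passed the filter on low values, which left 16411 genes for testing. Bulk poly-A RNA sequencing was done on punches of this nucleus, with 3 libraries from wild-type (WT) mice, numbered 62, 63 and 66, and 3 from 5xFAD transgenic mice, numbered 64, 65 and 79. The 5xFAD line carries transgenes with familial Alzheimer's disease mutations, human APP among them, driven in neurons by Thy1 regulatory sequence. No treatment, age or batch is given in the sources used here. Each library's column name ends in a lane-like number of its own, lower in all WT than in all 5xFAD libraries; its meaning is not given, and it cannot be told apart from genotype. Nothing in the labels ties a library to 1 mouse, so the p-values measure only the spread between these libraries, which may in part be technical.

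Microglia are the resident macrophages of the brain. Around amyloid plaques they lower the genes of their resting state and take on a disease-associated state, in which genes of lipid handling, phagocytosis and lysosomes are raised. TREM2, a receptor for lipids, lipoproteins and amyloid, signals through the adaptor TYROBP, and the later stage of this state depends on it. Several of the 10 genes are also read outside microglia, since some large brainstem neurons make osteopontin (Spp1), oligodendrocytes carry the tetraspanin CD9, and vessel cells and astrocytes carry the receptor kinase AXL.

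What the 10 genes share in their upstream sequence was searched in RefSeq promoters (build GRCm38.p6, which is not the build of the expression values), taking the 250 bases before each start. Of the 10, 7 were matched (Trem2, Axl, Cd9, Cd68, Spp1, Csf1 and Igf1, with 8 starts). The core GAGGAA, part of the site of PU.1, the factor that sets microglial identity, was found on either strand in 5 of the 7 genes (5 of their 8 starts), against 23.3% of all promoters. The longer GAGGAAG, which contains it, was found in 4 (10.6% of all), GAGGAAGT in 1 (2.44% of all) and the AP-1 site TGAGTCA in 1 (4.46% of all). The Trem2 and Axl windows are shown, Trem2 as the receptor at the head of the pathway and Axl as 1 of the 2 genes whose groups did not overlap, 5′ to 3′ with the core or its reverse TTCCTC in capitals.
Trem2, chr17:48346151-48346400, plus strand: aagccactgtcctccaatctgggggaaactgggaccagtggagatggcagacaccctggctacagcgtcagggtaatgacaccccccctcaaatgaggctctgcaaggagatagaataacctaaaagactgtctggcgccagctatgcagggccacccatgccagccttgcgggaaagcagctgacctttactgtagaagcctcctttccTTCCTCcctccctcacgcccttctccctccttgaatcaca
Axl, chr7:25788734-25788983, minus strand: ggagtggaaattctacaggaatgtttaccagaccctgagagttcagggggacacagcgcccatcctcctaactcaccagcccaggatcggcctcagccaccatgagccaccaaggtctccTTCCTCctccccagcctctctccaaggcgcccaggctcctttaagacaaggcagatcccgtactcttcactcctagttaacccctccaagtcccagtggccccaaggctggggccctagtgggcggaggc
Both hold the core once, on the reverse strand. A match is a description of these letters and not a site of binding. The motifs were chosen after the sequences were seen, from more than those reported, so these counts are no test of enrichment.

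The libraries held 15158712 to 20079349 reads assigned to genes. Thy1, whose sequence is part of the transgene cassette, was higher in all 3 5xFAD libraries (16885 to 22211 normalized counts) than in all 3 WT libraries (7976 to 9090), with a log2 ratio (5xFAD over WT) of 1.23, and was the 1 gene past the limma threshold (adjusted p = 0.0456). App of the mouse had a log2 ratio of −0.02. A normalized count is the reads of a gene divided by the size factor of its library. Dbh, the enzyme that makes noradrenaline, was read in every library, at 1281 to 2895 normalized counts, and Th, the first enzyme of that pathway, at 434 to 1100.2. The 6 noradrenergic markers, Dbh and Th among them, summed to 9801, 11019 and 5823 normalized counts in WT 62, 63 and 66. In 5xFAD 64, 65 and 79 they summed to 8424, 12350 and 9280, so WT 66 was the lowest of all 6 libraries. The libraries also differed in the tissue around the nucleus. The 5 cerebellar granule cell markers, Gabra6 and Cbln3 among them, summed to 1044, 6297 and 2089 normalized counts in WT 62, 63 and 66, and to 5152, 8085 and 2811 in 5xFAD 64, 65 and 79. WT 63 and 5xFAD 65 were thus the highest of their groups, and results are also given without both.

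None of the 10 genes passed the test between the genotypes. In the limma test with Benjamini-Hochberg adjustment over all 16411 genes, 0 of 10 passed at 0.05 (adjusted p = 0.9995 for each), where 0.00609% of all genes passed. At an unadjusted p under 0.05, 2 genes had lower values in 5xFAD, Axl and Cd52, and 0 had higher values, against 1.05% of all genes lower and 1.27% higher (2.32% either way). The same 2 were the genes whose groups did not overlap, each lower in all 3 5xFAD libraries, against 3.7% of all genes lower and 3.72% higher (7.42% either way). In total 5 genes had higher and 5 lower values, with a median log2 ratio of 0.04 against 0.00053 over all genes. edgeR's quasi-likelihood test on recovered reads called 0 of 10, with 2 under an unadjusted p of 0.05 (2.33% of all genes). DESeq2, also on recovered reads, called 0 and had 0 under an unadjusted p of 0.05 (0.731% of all genes). Without WT 63 and 5xFAD 65, limma called 0 and had 1 under an unadjusted p of 0.05, Cd52, against 6.7% of all genes. The groups then did not overlap in 3 genes with lower and 1 with higher values, against 17.7% and 18.8% of all genes, shares that are larger because each group holds 2 libraries. By the adjusted p of the authors' deposited table, 0 of the 10 were under 0.05, against 0.0106% of its 28317 genes. In whole tissue, fewer cells of a type and less RNA per cell cannot be told apart.

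**Figure D1:**
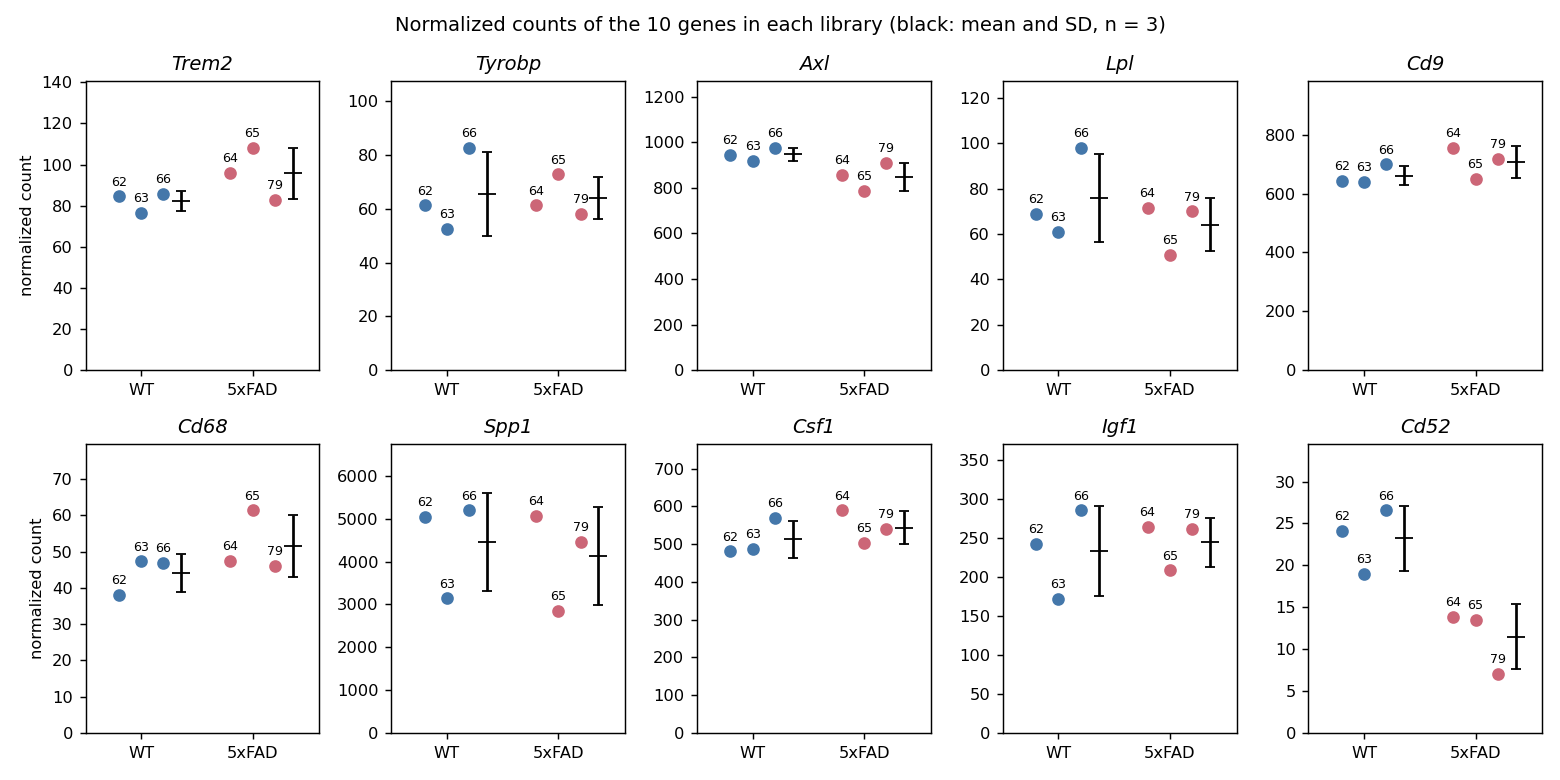
Normalized count (vertical axis, from 0) of each of the 10 genes in the 3 WT (blue) and 3 5xFAD (red) libraries, labelled by library number, with the mean and SD of each group in black. The groups are apart in Axl and Cd52, where all 3 5xFAD libraries lie below all 3 WT libraries, and overlap in the other 8 genes.

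The receptor and its adaptor come first. Trem2 (ENSMUSG00000023992.15) read 84.5, 76.6 and 85.8 normalized counts in WT 62, 63 and 66, and 95.9, 108 and 83.0 in 5xFAD 64, 65 and 79. The 5xFAD libraries 64 and 65 were above all WT libraries, and 5xFAD 79 lay among them. The group levels were 82.3 ± 4.99 for WT against 95.7 ± 12.6 for 5xFAD (SD, n = 3 each). The log2 ratio was 0.21 (SE 0.16, 95% interval −0.14 to 0.56, limma unadjusted p = 0.216, adjusted p = 0.9995), and this limma interval excludes a 1.5-fold difference either way. The ratio was 0.07 without WT 63 and 5xFAD 65, and 0.12 without 5xFAD 65 alone, the library with the highest Trem2. Over the 17 alternative settings it ran from 0.07 to 0.31, the latter without 5xFAD 79. In the authors' deposited table the log2 ratio of Trem2, turned to 5xFAD over WT, was 0.22 with a larger SE of 0.23, so the 1.5-fold bound depends on the tool.

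Tyrobp (ENSMUSG00000030579.11), whose product carries the TREM2 signal to the kinase SYK, read 61.3, 52.5 and 82.7 in the WT libraries and 61.2, 72.8 and 58.0 in those of 5xFAD (normalized counts, in the same order of libraries). The highest and the lowest of the 6 libraries were both WT. The log2 ratio was −0.01 (SE 0.21, 95% interval −0.48 to 0.46), and it turned to 0.17 without WT 66. Receptor and adaptor did not keep the same order of libraries, since Trem2 was highest in 5xFAD 65 and Tyrobp in WT 66, while both were lowest in WT 63.

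Axl (ENSMUSG00000002602.17) encodes a receptor kinase of the TAM family that clears dying cells and debris and binds them through the bridging ligand GAS6. It read 946, 919 and 976 normalized counts in the WT libraries and 856, 785 and 908 in those of 5xFAD. Every 5xFAD library was below every WT library, with a gap of 919 to 908 between the closest. The means were 947 ± 28.7 for WT against 850 ± 61.6 for 5xFAD (SD, n = 3 each), with a log2 ratio of −0.16 (SE 0.07, 95% interval −0.31 to −0.0029, limma unadjusted p = 0.0467, adjusted p = 0.9995). As a ratio of levels, 5xFAD over WT, that interval ran from 0.805 to 0.998. In the authors' deposited table the log2 ratio of Axl, turned to 5xFAD over WT, was −0.16 with an unadjusted p of 0.0985. The 7 astrocyte markers summed to 73305 to 82547 normalized counts in WT and 75119 to 79341 in 5xFAD, and the 8 endothelial and mural markers to 4896 to 5212 and 4794 to 5481, so both sums overlapped. Of the 7 astrocyte markers 3 had higher and 4 lower values. Gfap, the filament protein of reactive astrocytes, read 1493 to 2117 in WT and 2397 to 3074 in 5xFAD, with all 3 5xFAD libraries above all WT libraries (log2 ratio 0.63, SE 0.15, limma unadjusted p = 0.0045, adjusted p = 0.9995). The mean log2 level of the 7, Gfap included, weights them equally. It did not overlap, at −0.06 to −0.02 around its mean in WT and 0.02 to 0.06 in 5xFAD. Gfap had the largest log2 ratio of the 7 and was the 1 gene of them whose groups did not overlap, against 3.72% of all genes higher and 3.7% lower. The median log2 ratio of the 7 was −0.03, and the mean level without Gfap was not taken. The part of astrocytes in the Axl values was not tested. The other TAM receptors had log2 ratios of 0.27 (SE 0.25) for Mertk and 0.12 (SE 0.09) for Tyro3, and the ligands had −0.10 (SE 0.08) for Gas6 and 0.04 (SE 0.10) for Pros1.

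Of the secreted factors, Spp1 (ENSMUSG00000029304.15), which encodes osteopontin, an integrin and CD44 ligand, differed most between libraries of one genotype. It read 5053, 3143 and 5196 normalized counts in the WT libraries and 5060, 2852 and 4460 in those of 5xFAD. WT 63 and 5xFAD 65 stood below the other 4 libraries, and the genotypes overlapped. The log2 ratio was −0.12 (SE 0.30, 95% interval −0.89 to 0.65), so a difference of 1.5-fold was not excluded. The same 2 libraries were the highest in cerebellar granule markers (sums of 6297 and 8085 against 1044 to 5152 in the others). They were also the lowest in oligodendrocyte markers, of which all 8 were tested and none was at 0, with sums of 210499 and 203425 against 255090 to 317168 normalized counts. The 6 markers of brainstem motor and trigeminal neurons summed to 18221 to 22137 in WT and 15963 to 20278 in 5xFAD. Their sum was lowest in the same 2 libraries, but their mean log2 level, which weights them equally, was highest in WT 63 (0.47 above its mean), where Chat (251) and Prph (354) were also highest, so these markers gave no single order. Without these 2 libraries the log2 ratio of Spp1 was −0.11 (limma unadjusted p = 0.103). The part of these tissues in the Spp1 values was not tested.

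Csf1 (ENSMUSG00000014599.11), the growth factor on which microglia depend for survival, read 481, 488 and 569 normalized counts in the WT libraries and 589, 503 and 540 in those of 5xFAD. The groups overlapped, and the log2 ratio of 0.09 (SE 0.09, 95% interval −0.12 to 0.29) excluded a 1.5-fold difference. Its receptor Csf1r had a log2 ratio of 0.15 (SE 0.09), and Il34, the other ligand of that receptor, one of −0.02 (SE 0.15).

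Igf1 (ENSMUSG00000020053.19), a growth factor for neurons and oligodendrocytes, read 242, 171 and 285 normalized counts in the WT libraries and 263, 208 and 261 in those of 5xFAD. WT 63 and 5xFAD 65 were again the lowest of their groups, as they were in Spp1, Axl, Lpl and Cd9. The log2 ratio was 0.09 (SE 0.19, 95% interval −0.33 to 0.52), and it turned to −0.11 without WT 63. The binding proteins of this factor had log2 ratios of 0.31 (SE 0.12) for Igfbp5 and −0.32 (SE 0.17) for Igfbp2, and limma called neither (adjusted p = 0.9995 each).

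Lpl (ENSMUSG00000015568.17), the lipase that releases fatty acids from lipoproteins, read 68.7, 61.1 and 98.0 normalized counts in the WT libraries and 71.6, 51.0 and 70.0 in those of 5xFAD. One library of each genotype set the extremes, WT 66 the highest and 5xFAD 65 the lowest. The log2 ratio was −0.23 (SE 0.23, 95% interval −0.73 to 0.28), and −0.03 without WT 66. Gpihbp1, which anchors this lipase to the vessel wall, was at 0 in all 6 libraries.

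Of the surface and lysosomal genes, Cd9 (ENSMUSG00000030342.9), a tetraspanin that organises membrane proteins, read 643, 641 and 699 normalized counts in the WT libraries and 756, 650 and 717 in those of 5xFAD. Its log2 ratio was 0.10 (SE 0.08, 95% interval −0.08 to 0.27), with overlapping groups. Its partner Cd81 had a log2 ratio of −0.02 (SE 0.07). Cd68 (ENSMUSG00000018774.14), a glycoprotein of phagocyte lysosomes, read 38.1, 47.3 and 47.0 in the WT libraries and 47.4, 61.4 and 46.0 in those of 5xFAD (normalized counts). One library, 5xFAD 65, stood above the others. The log2 ratio was 0.22 (SE 0.21, 95% interval −0.25 to 0.68), with 0.09 without 5xFAD 65 and 0.14 without WT 63 and 5xFAD 65. Over its 16 alternative settings it ran from 0.09 to 0.29, the latter without 5xFAD 79.

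Cd52 (ENSMUSG00000000682.8), a small lipid-anchored surface glycoprotein of leukocytes and microglia, had the widest difference of the 10 and the fewest reads. It read 24.1, 18.9 and 26.5 normalized counts in the WT libraries and 13.9, 13.5 and 6.998 in those of 5xFAD. Every 5xFAD library was below every WT library. Behind these values stood 26, 22 and 26 reads in WT and 12, 13 and 7 reads in 5xFAD, or 74 against 32 in all. The means were 23.2 ± 3.90 for WT against 11.5 ± 3.87 for 5xFAD (SD, n = 3 each), with a log2 ratio of −0.9996 (SE 0.35, 95% interval −1.79 to −0.21, limma unadjusted p = 0.0184, adjusted p = 0.9995). As a ratio of levels, that interval ran from 0.289 to 0.865. In the authors' deposited table the log2 ratio of Cd52, turned to 5xFAD over WT, was −1.02 with an unadjusted p of 0.0540.

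Markers of other leukocytes and macrophages were read at unequal levels. The 8 lymphocyte markers, Cd3e and Cd3d among them, all stayed under the filter, and summed to 12.9 to 17.6 normalized counts in WT and 15.0 to 20.0 in 5xFAD. The 6 markers of blood monocytes and neutrophils, Ly6c2 and Ccr2 among them, also stayed under it, with sums of 4.08 to 12.9 in WT and 1.16 to 13.5 in 5xFAD. The 7 markers of macrophages at vessels and meninges summed to 114 to 153 in WT and 144 to 184 in 5xFAD, with 3 of 7 tested. Of these 3, 2 had higher values and 1 lower, F13a1, with a log2 ratio of −0.14 (SE 0.23). Mrc1 read 41.9 to 81.1 normalized counts over the 6 libraries, with a log2 ratio of 0.23 (SE 0.24), and Lyve1 read 4.08 to 9.29. Of those under the filter, Pf4 (0 to 5.57 in WT and 9.00 to 13.5 in 5xFAD) and Cbr2 (4.64 to 5.16 and 9.00 to 13.5) were higher in all 3 5xFAD libraries. Both rest on few reads and were named after their values were seen. Without the filter, 3.44% of all genes did not overlap and were higher, and 3.28% lower. Lyve1 and Ms4a7, also under the filter, overlapped between the genotypes, Ms4a7 at 1.86 to 8.17 in WT and 3.47 to 9.36 in 5xFAD. The summed levels of all 3 cell types overlapped between the genotypes, and their part in the Cd52 values was not tested. Measured against the mean of 18 homeostatic microglial genes in the same library, the log2 ratio of Cd52 was −1.03 and that of Axl −0.19.

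**Figure D2:**
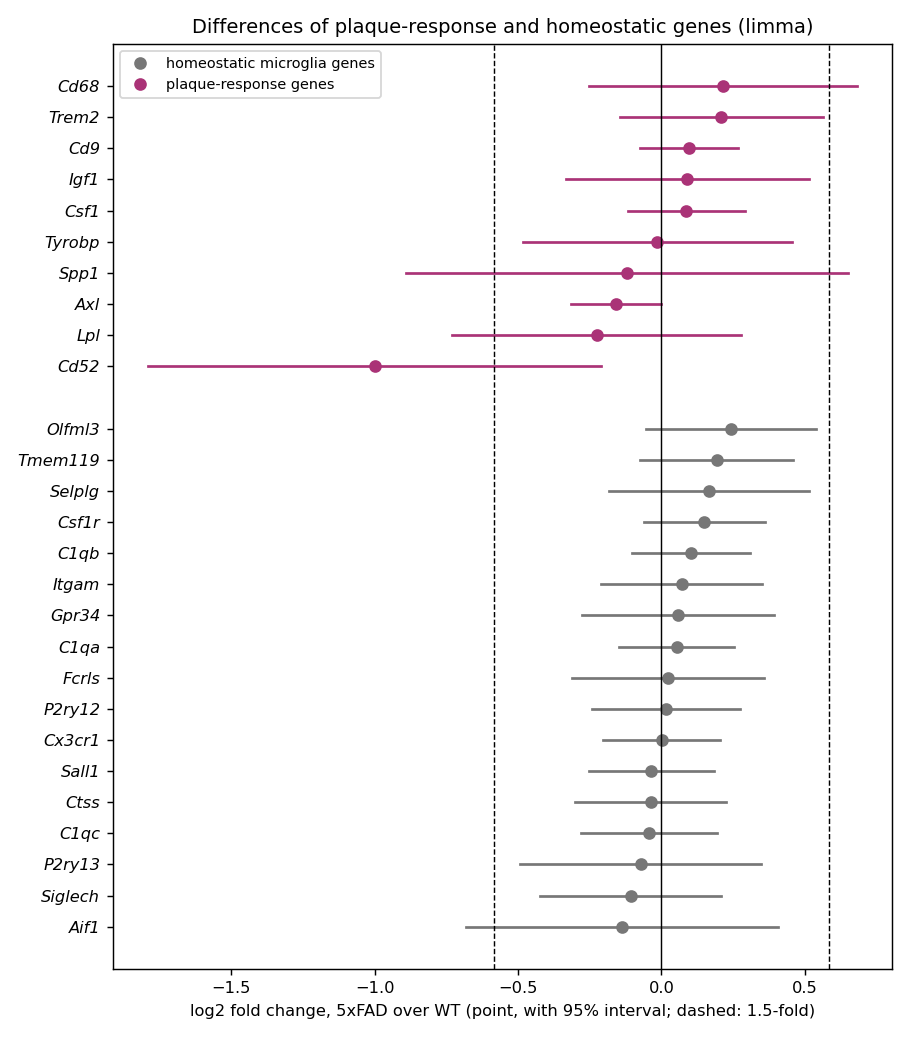
Log2 ratio, 5xFAD over WT, of the 10 plaque-response genes (purple) and 17 of the 18 homeostatic microglial genes (grey), with 95% intervals from limma; dashed lines mark 1.5-fold. The intervals of Axl and Cd52 lie below 0. Those of Cd68, Spp1, Lpl and Cd52 among the 10, and of Aif1 among the homeostatic genes, cross a dashed line.

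The intervals show how far a difference was bounded. For 6 of the 10 genes, Trem2, Tyrobp, Axl, Cd9, Csf1 and Igf1, the 95% interval from limma excluded a 1.5-fold difference in either direction, against 71.4% of all genes. For Lpl, Cd68, Spp1 and Cd52 it did not. The authors' deposited table, from which no interval was taken, gave larger standard errors for Trem2 (0.23 against 0.16) and Tyrobp (0.29 against 0.21). The limma bounds therefore depend on the tool. These bounds hold for the punched tissue as a whole and not for microglia next to a plaque.

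The reads behind a gene set part of its spread. Spread from counting alone was compared with the SD between libraries of one genotype, both in log2 units. For Trem2, with 83 to 104 reads per library, the SD within groups was 0.15 and that expected from counting was 0.15. For Cd68, with 41 to 59 reads, they were 0.20 and 0.21, and for Cd52, with 7 to 26 reads, 0.40 and 0.38. In these 3 genes the spread between libraries was about that of counting. Spp1 was the opposite case, with 2743 to 5442 reads, an SD within groups of 0.42 and a counting SD of 0.02, a ratio of 18.6. For Igf1 the ratio was 3.15, and for the other 5 genes it ran from 1.44 (Tyrobp) to 1.98 (Csf1).

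**Figure D3:**
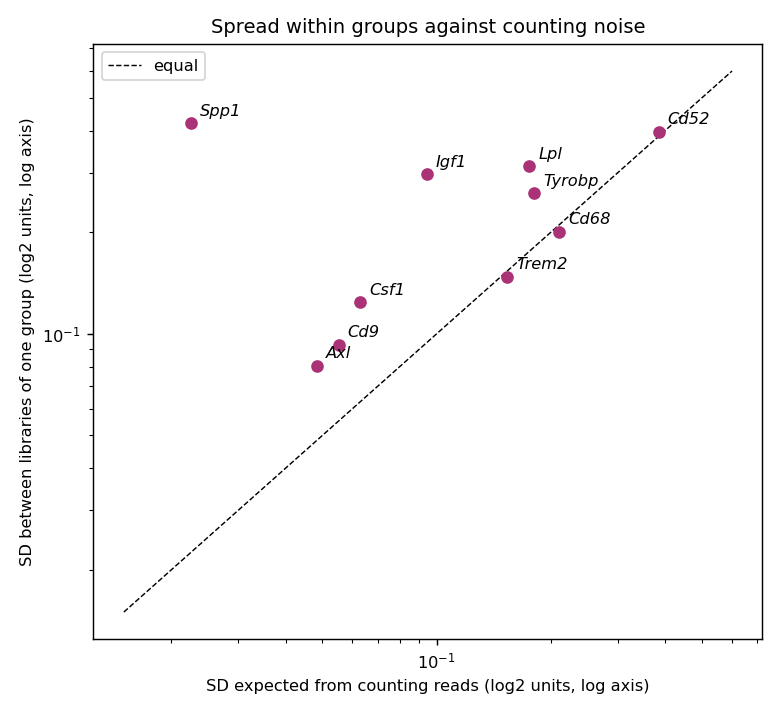
SD between libraries of one genotype (vertical axis, log2 units) against the SD expected from counting reads (horizontal axis, log2 units) for each gene, both axes logarithmic; on the dashed line they are equal. Trem2, Cd68 and Cd52 lie close to the line and Spp1 far above it, at 0.42 against 0.02.

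The levels of the 10 genes were ordered per kilobase of the principal transcript, over all 6 libraries, as a description. Spp1 was highest, with a median of 3156 normalized counts per kilobase (1893 to 3448), above Cd9 with 549 (522 to 615) and Axl with 214 (184 to 229). The ranges of these 3 did not overlap with each other. Igf1 with 150 (102 to 170), Csf1 with 125 (115 to 141), Tyrobp with 109 (93.0 to 147) and Trem2 with 78.2 (70.4 to 99.4) came next. Among these 4 each overlapped its neighbour in the order, while Trem2 did not overlap Cd68. Cd68 with 38.3 (31.0 to 49.9), Cd52 with 31.9 (13.6 to 51.6) and Lpl with 16.9 (12.4 to 23.8) were lowest and likewise overlapped their neighbours among these 3. Trem2 and its adaptor read below Spp1, Cd9 and Axl, and which cells these reads came from was not tested. With the summed length of all exons of each gene, the first 3 kept their places and Cd52 and Lpl kept theirs. Igf1 moved from rank 4 to 7, Csf1 from 5 to 4, Tyrobp from 6 to 5, Trem2 from 7 to 8 and Cd68 from 8 to 6. On that length Trem2 had a median of 17.2, below Cd68 with 37.5, so the order of these 2 depends on the length taken.

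**Figure D4:**
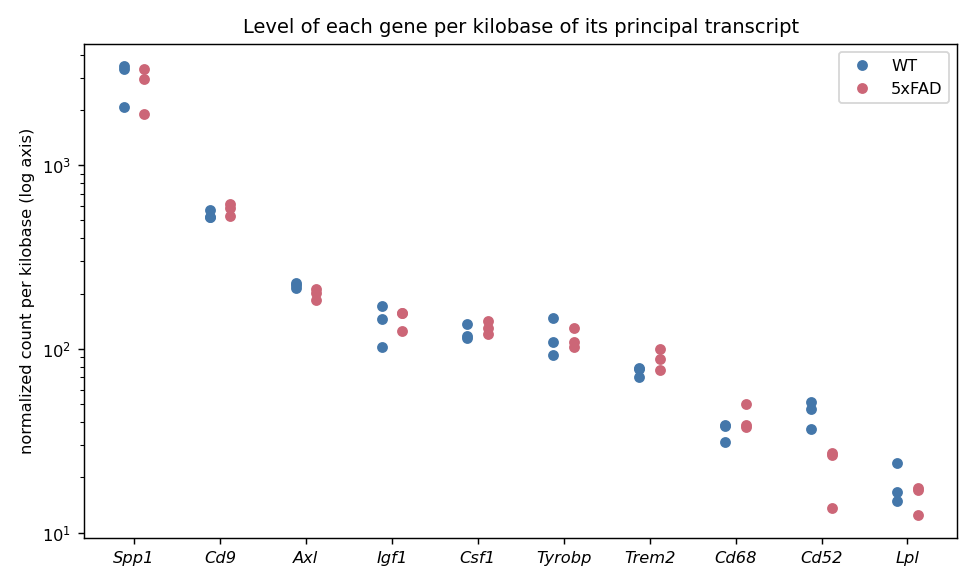
Normalized count per kilobase of the principal transcript (vertical axis, logarithmic) for each gene, in order of the median, with 3 WT libraries in blue and 3 5xFAD libraries in red. Spp1 spans 1893 to 3448 and Lpl, the lowest, 12.4 to 23.8.

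Beyond the 10 genes, the label of a plaque-response state was checked against other genes of that state. Of 28 listed, 21 passed the filter, with 8 higher and 13 lower values, a median log2 ratio of −0.02 and 0 past the limma threshold or at an unadjusted p under 0.05. The other 7, sharp markers of this state among them, stayed under the filter in both genotypes. Cst7, a cathepsin inhibitor, read 0 to 2.08 normalized counts over the 6 libraries, the integrin Itgax 0 to 11.2, the lectin receptor Clec7a 1.04 to 9.00, the chemokines Ccl3 0 to 5.00 and Ccl4 0 to 1.86, the receptor Lilrb4a 0.860 to 10.4, and the hydroxylase Ch25h 0 to 10.3. Of these 7, Ccl3 had higher values in all 3 5xFAD libraries (0 to 0.929 in WT and 1.16 to 5.00 in 5xFAD), at very few reads. Without the filter, 3.44% of all genes did not overlap and were higher. In reads, the highest WT library (62) and the lowest 5xFAD library (64) were equal in Ccl3, as their size factors differ (1.08 and 0.865). The others overlapped. Where they were tested, Capg had a log2 ratio of −0.36 (SE 0.29), Ccl6 of 0.37 (SE 0.34), the cathepsin Ctsz of −0.08 (SE 0.08) and the ferritin chain Fth1, the most abundant per kilobase, of 0.0030 (SE 0.12).

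Genes that carry or end the TREM2 signal were measured too. Of 16 listed, 15 passed the filter, with 12 higher and 3 lower values, a median log2 ratio of 0.07, and 0 past the limma threshold or at an unadjusted p under 0.05. The sheddase Adam10, which cuts TREM2 from the cell surface, read 1628 to 1640 normalized counts in WT and 1703 to 1758 in 5xFAD (log2 ratio 0.09, SE 0.05). It was the 1 gene of the 15 whose groups did not overlap, against 3.72% of all genes higher and 3.7% lower. The phosphatase Inpp5d, which restrains the signal, had a log2 ratio of 0.21 (SE 0.15), the kinase Syk of 0.35 (SE 0.25), and the lipoprotein ligands Apoe of 0.0057 (SE 0.06) and Clu of 0.03 (SE 0.06). Hcst, the alternative adaptor, read 0 to 2.08 normalized counts.

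Genes of the resting state were measured as well. All 18 homeostatic genes were tested, with 11 higher and 7 lower values, a median log2 ratio of 0.02, and 0 past the limma threshold or at an unadjusted p under 0.05. Their summed level was 5864 to 6805 normalized counts in WT and 6237 to 6631 in 5xFAD. Olfml3 had a log2 ratio of 0.24 (SE 0.13), the marker Tmem119 of 0.19 (SE 0.12) and the protease Ctss of −0.04 (SE 0.12). For 17 of the 18 the 95% interval from limma excluded a 1.5-fold difference, against 71.4% of all genes, the exception being Aif1 (−0.68 to 0.41). The purinergic receptor P2ry12 read 316 to 413 normalized counts in WT and 334 to 370 in 5xFAD.

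Receptors, ligands and partners of the 10 genes had 18 higher and 11 lower values among 29 tested of 30 listed, with a median log2 ratio of 0.04. None passed the limma threshold. At an unadjusted p under 0.05 were 2, Igfbp5 and Cd44, both higher, against 1.27% of all genes higher and 1.05% lower. Cd44, a receptor for osteopontin and hyaluronan, read 40.9, 61.9 and 43.9 normalized counts in the WT libraries and 79.7, 60.3 and 67.0 in those of 5xFAD, with a log2 ratio of 0.50 (SE 0.22). WT 63 lay above 5xFAD 65, so the groups overlapped. Lamp1, a membrane protein of lysosomes, had a log2 ratio of 0.04 (SE 0.07).

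**Figure D5:**
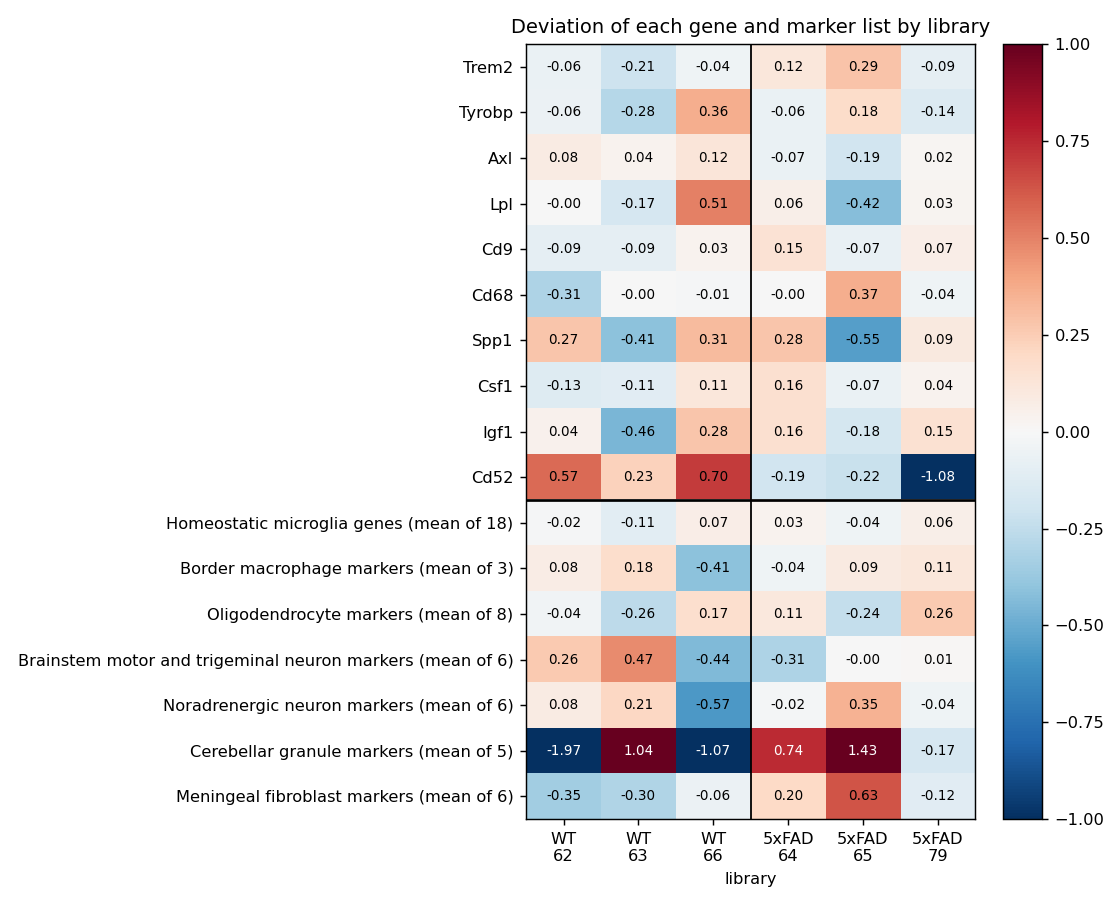
Log2(normalized count + 1) minus its mean over the 6 libraries for each of the 10 genes (above the line) and for the mean of 7 marker lists (below it), by library, with red higher and blue lower; colours end at 1 and the numbers are printed in the cells. Spp1, Igf1, Lpl, Cd9 and Csf1 are below their mean in WT 63 and 5xFAD 65, where cerebellar granule markers are highest, and Cd52 is below its mean in all 3 5xFAD libraries.

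The 10 genes did not follow 1 common pattern over the libraries. WT 66 held the highest value of 6 of the 10 genes, and WT 63 the lowest value of 4, so the libraries of 1 genotype differed from each other as well. WT 66 was also the lowest in the sum of noradrenergic markers, and the part of this in its values was not tested. Among 53 tested genes of the fixed microglial lists, the gene closest to each of the 10 was found by the root mean square difference of centred log2 values over the 6 libraries, as a description. Closest to Trem2 were the inhibitory receptor Cd33 at 0.12 and the complement component C1qa at 0.12, and closest to Tyrobp were P2ry12 at 0.10 and the integrin Itgam at 0.13. Axl lay closest to Ctsb at 0.07, Cd9 to Adam10 at 0.07 and Ctsl at 0.08, and Csf1 to Itgam at 0.08 and C1qa at 0.09. Cd68 lay closest to Mef2c at 0.13 and H2-D1 at 0.15, Lpl to Cd63 at 0.18 and Fcrls at 0.19, and Igf1 to Fth1 at 0.11 and Csf1r at 0.13. Closest to Spp1 were Fth1 at 0.23 and Ptpn6 at 0.24, and closest to Cd52 were Capg at 0.35 and Cybb at 0.47. This measure grows with a gene's own range over the libraries, from 0.24 for Cd9 to 1.78 for Cd52, so it does not rank the 10 genes against each other.

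Meningeal fibroblast markers were higher in 5xFAD on average. All 6 were tested, none was at 0 and all 6 had higher values. Of them 0 were past the limma threshold and 2 at an unadjusted p under 0.05, against 1.27% of all genes higher. The 6 summed to 1387 to 1658 normalized counts in WT and 1524 to 2608 in 5xFAD, with 5xFAD 65 the highest. Lum read 23.2 to 30.6 in WT and 43.0 to 70.7 in 5xFAD (log2 ratio 1.07, SE 0.25), and Col1a1 139 to 146 and 164 to 228 (log2 ratio 0.41, SE 0.14). In these 2 genes the groups did not overlap, against 3.72% of all genes higher, while Col1a2 had a log2 ratio of 0.13 (SE 0.13). The library 5xFAD 65 also held the highest Trem2 and Cd68, and the part of this tissue in those values was not tested.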

How the data were processed

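Per the series' design text and the labels' protocols, biopsy punches of brain slices were frozen, and TruSeq libraries of poly-A RNA were sequenced. STAR, RSEM, DESeq2 and the build mm39 appear in the submitters' processing notes. Neither annotation nor counting strand is given in the sources used here, and genes that overlap others are uncertain. The deposited library columns hold a signal, each count scaled by the library's size factor (0.865 to 1.16). They are named as TPM, yet 100% of the values were whole multiples of 1 step (tolerance 0.001), so reads were recovered, 15158712 to 20079349 per library. The authors' deposited table also gives a log2 fold change with its standard error, a test score and an unadjusted and adjusted p-value, as WT over 5xFAD, and the sign was turned where printed. The number of reads limits precision as given beside each gene.

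Identifiers were matched to symbols without version (52073 of 56923). Genes that reached a normalized count of 10 in 3 or more libraries entered limma 3.58.1 (R 4.3.3) with variance trend and robust moderation, on log2(normalized count + 1), and adjusted by Benjamini-Hochberg over all 16411. This scale understates the ratios of low genes, and the report's log2 ratios are differences on it. The script was tested on simulated data. edgeR 4.0.16 and DESeq2 1.42.0 were run on the recovered reads as alternatives. Alternatives were other pseudocounts, filters, scalings, tools, a reference to homeostatic genes and leaving out libraries. Lengths came from GENCODE M21, the principal transcript of each gene. Members and lists were chosen with earlier results of these data known. Named were the 10 genes, from each of 4 lists around them up to 3 genes with the smallest p, 2 with the highest level per kilobase and those under the filter, the first 2 genes of cell type lists where given, and the 2 closest profiles. TAM receptors, their ligands, Il34, Gfap, Lum, Pf4, Cbr2, F13a1, Ms4a7 and Aif1 were named after their values were seen. The sequences are from RefSeq, and the promoter motifs were chosen after the sequences were seen, from more motifs than those reported. Some items that the naming rule covers are not reported or drawn here.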

Additional observations from a re-analysis of the deposited data

How the results depend on the processing

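Of the 10 genes, 0 passed at 0.05 under all 17 alternative settings (lowest adjusted p = 0.597, for Cd52 without WT 63 and 5xFAD 65). The setting without both was chosen after the data were seen. Direction was kept in 161 of 168 gene and setting pairs. It turned for Tyrobp to 0.165 without WT 66, 0.0143 without 5xFAD 64 and 0.0531 without 5xFAD 79, for Spp1 to 0.00809 without WT 66 and 0.126 without 5xFAD 65, and for Igf1 to −0.114 without WT 63 and −0.00298 without WT 63 and 5xFAD 65 (log2 ratios). With 1 library left out, Tyrobp ran from −0.158 to 0.165, Spp1 from −0.354 to 0.126 and Igf1 from −0.114 to 0.252. The values of Axl ran from −0.207 to −0.103 (unadjusted p 0.0214 to 0.176) and those of Cd52 from −1.27 to −0.707 (0.0121 to 0.0633). The count of genes with lower values at an unadjusted p under 0.05 went from 2 to 1 without a filter on low values, with the stricter filter of 50, which leaves out Cd52 and Cd68, without trend and robust moderation, and without WT 63 and 5xFAD 65, to 0 with DESeq2, and to between 0 and 2 with 1 library left out (0 without WT 62 or WT 66), against 0.314% (DESeq2) to 2.99% (without both) of all genes. The count of genes that did not overlap and were higher went from 0 to 1 with quantile normalization and without WT 63 and 5xFAD 65, and ran from 0 to 2 with 1 library left out, against 3.07% of all genes with quantile normalization, 18.8% without both and 6.85% to 12.3% with 1 left out. That of lower genes went from 2 to 1 with the stricter filter (3.4% of all) and to 3 without both (17.7%). The cause was not tested beyond the fewer genes or libraries of those settings. The median of the 10 ran from −0.136 (without WT 63) to 0.151 (without WT 66). No paired analysis was possible because the genotypes share no library numbers.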
